A study of Homo sapiens with 4 samples.

Results

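Cadherins are calcium-dependent adhesion proteins that hold neighbouring cells together, and the genes described here are the classical cadherins, a few atypical cadherins, and the protocadherins that lie outside the large protocadherin gene clusters. Members were all gene symbols made of CDH or PCDH followed by a number and nothing else. This rule took 34 of the 28307 gene symbols in the files, 23 named CDH and 11 named PCDH. Of these, 28 had enough counts to be tested between the groups and 6 did not.

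Classical cadherins bind cadherins on the next cell through their outermost extracellular repeat and bind catenins, which reach the actin cytoskeleton, through their cytoplasmic tail. In the nervous system they take part in the layering of neurons, in axon targeting and in holding the presynaptic and postsynaptic membranes together. Type I members such as N-cadherin adhere strongly, and type II members have a different adhesive interface and are used in changing combinations by groups of neurons. Non-clustered protocadherins adhere weakly, do not bind catenins, and signal through other partners, with the delta-2 group recruiting the WAVE actin regulator.

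RNA was measured by polyA sequencing, as paired-end reads of 75 bp, in excitatory neurons made from i3N-WTC11 cells, a human induced pluripotent stem cell line. CRISPRi neurons (2 libraries) received lentivirus with guide RNAs against 1 MIR transposable element on chromosome 11, and the control neurons (2 libraries) received the empty vector. All 4 cultures carried dCas9-KRAB, a catalytically dead Cas9 fused to a repressor domain, under a CAG promoter in an intron of CLYBL, so the comparison is of guides against no guides in 1 cell line. Virus was added at 2 weeks of differentiation (multiplicity of infection near 3), puromycin selection at 0.5 µg/mL lasted 4 days, and collection followed at 7 days. The labels call replicates biologically independent and give 2 guides per element, without saying which guide went into which library.

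The CRISPRi libraries held 44839748 and 41560282 gene counts, against 944993 in control replicate 1 and 39325038 in control replicate 2. Control replicate 1 was 41.6 times shallower than the next library. There 3 counts equal 3.17 CPM (a gene's counts relative to all gene counts of its library), against 0.0669 to 0.0763 CPM in the other 3, called the deep libraries below. The 6 neuronal markers, led by STMN2 and TUBB3, summed to 7200 and 7312 CPM in CRISPRi neurons, against 6285 and 7227 CPM in controls 1 and 2. The 6 cell cycle markers, led by TOP2A and MKI67, summed to 38.5 and 41.4 CPM in CRISPRi neurons, against 251 and 41.6 CPM in controls 1 and 2. Their part in the member values of control replicate 1 was not tested. The genes on either side of the element, C1QTNF4 and MTCH2, had log2 fold changes of 0.06 (interval -0.35 to 0.46) and 0.08 (-0.17 to 0.32), and neither passed the test. The element's position is stated as chromosome 11 from 47608036 to 47608220 and also as 47605296 to 47605575, and no member lies on chromosome 11.

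The sequences show the start regions of high and low members. They are 300 bases around the start of 4 members, from 250 bases before to 50 after it, on the gene's strand, from RefSeq on GRCh38.p14. CDH2 (chr18:28177081-28177380, minus strand) was the most abundant member and PCDH8 (chr13:52848591-52848890, minus strand) the most abundant delta-2 protocadherin per length. CDH23 (chr10:71396670-71396969, plus strand) was the lowest tested member per length, and CDH19 (chr18:66604041-66604340, minus strand) was nearly without counts. Capitals mark the dinucleotide CG, which reads the same on both strands.

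CDH2: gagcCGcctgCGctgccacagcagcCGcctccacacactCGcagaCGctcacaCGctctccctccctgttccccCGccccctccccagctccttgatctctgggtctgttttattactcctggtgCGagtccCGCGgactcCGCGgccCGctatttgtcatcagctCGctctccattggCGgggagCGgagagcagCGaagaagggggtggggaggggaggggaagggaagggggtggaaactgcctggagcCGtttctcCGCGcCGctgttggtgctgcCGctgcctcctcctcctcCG

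PCDH8: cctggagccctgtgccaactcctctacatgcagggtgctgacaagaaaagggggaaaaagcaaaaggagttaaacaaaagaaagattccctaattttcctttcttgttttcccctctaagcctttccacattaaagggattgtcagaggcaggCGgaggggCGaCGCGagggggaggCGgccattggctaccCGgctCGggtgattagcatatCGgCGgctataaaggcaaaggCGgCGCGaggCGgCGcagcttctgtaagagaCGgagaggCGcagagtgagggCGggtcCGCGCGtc

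CDH23: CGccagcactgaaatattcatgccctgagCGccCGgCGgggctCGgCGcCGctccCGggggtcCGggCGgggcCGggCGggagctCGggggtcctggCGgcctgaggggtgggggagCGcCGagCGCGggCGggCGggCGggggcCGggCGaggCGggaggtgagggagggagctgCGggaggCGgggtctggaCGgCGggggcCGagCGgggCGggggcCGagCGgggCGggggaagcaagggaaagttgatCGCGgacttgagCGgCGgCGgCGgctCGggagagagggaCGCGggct

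CDH19: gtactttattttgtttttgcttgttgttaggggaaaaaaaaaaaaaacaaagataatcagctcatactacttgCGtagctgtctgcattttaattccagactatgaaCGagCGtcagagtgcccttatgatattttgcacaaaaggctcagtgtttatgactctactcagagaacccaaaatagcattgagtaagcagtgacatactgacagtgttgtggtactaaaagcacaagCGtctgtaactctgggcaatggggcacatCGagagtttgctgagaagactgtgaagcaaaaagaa

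The windows held 23 CG dinucleotides in CDH2, 20 in PCDH8, 43 in CDH23 and 5 in CDH19. Of the 34 members, 21 had a RefSeq window, and in 19 the window's start lay within 100 bp of the gene's 5′ end given in the files. At least 10 CG were counted in 13 of the 17 such windows of tested members and in 0 of the 2 of untested members (CDH19 and CDH26), beside 56.4% of the 35116 windows in the table. The level did not follow the count closely, since CDH23 held more CG than any other window and was the lowest tested member. Over the 19 windows Spearman's rho between CG number and level per kilobase was 0.39. These points share the same 3 libraries, and the value is a description.

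Levels between genes were compared as CPM per kilobase of the longest GENCODE transcript, over the 3 deep libraries. CDH2, which encodes N-cadherin, the main classical cadherin of neural tissue, led at 79.0 CPM per kb, with a range of 78.0 to 80.0. PCDH1, a delta-1 protocadherin, followed at 30.6 CPM per kb, and the type II cadherin CDH22 at 30.3 CPM per kb. The ranges of PCDH1 and CDH22 overlapped, so their order is not set, whereas CDH2 stood 2.58 times above PCDH1 on this scale. PCDH8, the GPI-anchored T-cadherin CDH13 and CDH10 came next, at 13.9, 13.8 and 12.9 CPM per kb, and their ranges overlapped from one to the next. Of the 27 neighbouring pairs among the 28 tested members, ranges overlapped in 11 and were apart in 16. At the low end stood CDH3, CDH9 and CDH23, at 0.331, 0.295 and 0.121 CPM per kb.

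The scale of length mattered for PCDH9, a delta-1 protocadherin whose longest transcript is 28227 bp. It ranked 14 per kilobase of that transcript, 5 per kilobase of coding sequence and 6 by the FPKM the authors deposited. CDH4, R-cadherin, had 1022 and 896 counts in CRISPRi neurons, against 9 and 880 counts in control replicates 1 and 2, but a deposited FPKM of 0 in every library. Its only row in the files lies on an alternate contig of chromosome 20, so its level is uncertain. It was the only member with counts and an FPKM of 0.

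**Figure D1:**
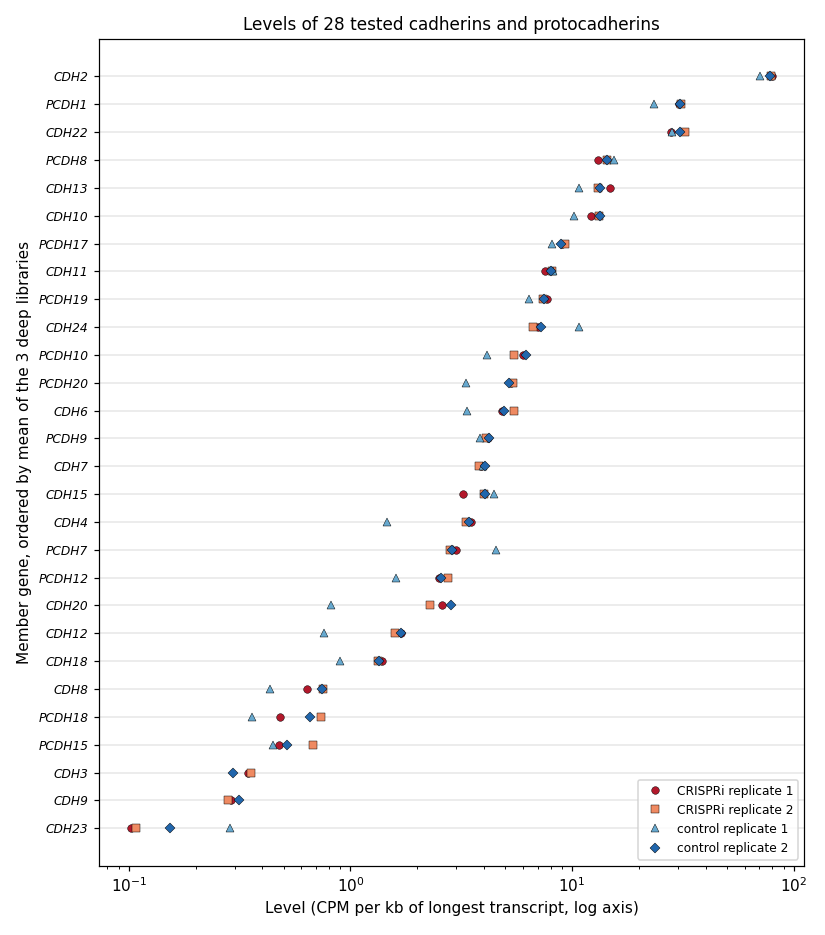
Level of each tested member (rows, ordered by the mean of the deep libraries) in CPM per kilobase of the longest transcript on a log axis, with 1 point per library and values of 0 not drawn. CDH2 lies near 80 CPM per kb, and PCDH1 and CDH22 near 30. From CDH12 down, the points of control replicate 1 rest on at most 4 counts each.

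Type I classical cadherins were represented mostly by N-cadherin. CDH2 stood at 346 and 342 CPM in CRISPRi neurons, against 304 and 338 CPM in control replicates 1 and 2. Both CRISPRi libraries lay above both controls, and the deep libraries differed by a factor of 1.02 from lowest to highest. Its log2 fold change was 0.11 (SE 0.09, 95% confidence interval -0.11 to 0.33) and it did not pass (adjusted p = 1.00 by edgeR over all 15708 tested genes). CDH2 made up 24.0% and 23.4% of all member counts in CRISPRi neurons, and 23.9% and 23.2% in controls.

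The other type I members differed widely in level. CDH4 was at 22.8 and 21.6 CPM in CRISPRi neurons, against 9.52 and 22.4 CPM in controls, with the low value resting on 9 counts in control replicate 1. CDH15, M-cadherin of skeletal muscle, was at 9.17 and 11.5 CPM in CRISPRi neurons, against 12.7 and 11.5 CPM in controls. Both CRISPRi values of CDH15 lay below both controls, the higher of them by less than 0.1 CPM, with a log2 fold change of -0.17 (interval -0.68 to 0.33). CDH3, P-cadherin of epithelia, had 76 and 73 counts in CRISPRi neurons, against 0 and 57 counts in controls, where 0 counts in the shallow library allows a level up to 3.17 CPM. CDH1, E-cadherin, the adhesion protein of epithelia and of pluripotent cells, had 0 counts in every library, which allows at most 0.0669 CPM in CRISPRi replicate 1 and 0.0763 CPM in control replicate 2. Among epithelial markers CLDN7 was also at 0 in every library, while EPCAM had 11 and 18 counts in CRISPRi neurons and 0 and 10 counts in controls. CDH3 and CDH1 are neighbours on chromosome 16, from 68636189 to 68722616 and from 68737225 to 68835548 on GRCh38.

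Type II cadherins were the class with most members, with 11 of 13 tested and 0 of the 11 called. Together they summed to 345 and 372 CPM in CRISPRi neurons, against 330 and 369 CPM in controls, close to the type I sum of 380 and 377 CPM in CRISPRi neurons, against 326 and 373 CPM in controls. CDH22, a brain-expressed member, was at 109 and 126 CPM in CRISPRi neurons, against 110 and 120 CPM in controls, and the groups overlapped. CDH11, first described in bone-forming cells and also present in brain, was at 51.7 and 55.5 CPM in CRISPRi neurons, against 56.1 and 55.3 CPM in controls, and the groups overlapped. CDH7 was at 47.5 and 46.6 CPM in CRISPRi neurons, against 48.7 and 49.5 CPM in controls. These CDH7 groups did not overlap, yet the log2 fold change was only -0.06 (interval -0.27 to 0.16).

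CDH10, CDH6 and CDH24 formed the middle of the class. CDH10 was at 42.0 and 45.3 CPM in CRISPRi neurons, against 34.9 and 46.0 CPM in controls. CDH6, a cadherin of kidney and of developing brain, was at 40.7 and 46.5 CPM in CRISPRi neurons, against 28.6 and 41.7 CPM in controls. In both genes the control replicate 1 value was the lowest of the 4 libraries and the other 3 values lay close together. CDH24 went the other way, at 24.8 and 23.6 CPM in CRISPRi neurons, against 38.1 and 25.7 CPM in controls, with a log2 fold change of -0.22 (interval -0.66 to 0.21).

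The type II members CDH20, CDH12, CDH18 and CDH8 were low, with means of 4.79 to 9.99 CPM in the deep libraries, and had 3 or 4 counts each in control replicate 1. CDH20 was at 10.04 and 8.90 CPM in CRISPRi neurons, against 3.17 and 11.04 CPM in controls. CDH12 was at 7.07 and 6.59 CPM in CRISPRi neurons, against 3.17 and 7.02 CPM in controls. CDH8, which marks sets of cortical and hippocampal projections in mice, was at 6.20 and 7.31 CPM in CRISPRi neurons, against 4.23 and 7.20 CPM in controls. The control replicate 1 values cannot separate these genes from one another. CDH9, a cadherin that acts at hippocampal mossy fibre synapses in mice, had 40 and 36 counts in CRISPRi neurons, against 0 and 38 counts in controls.

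CDH5 and CDH19 were the untested type II members. CDH5, VE-cadherin of blood vessels, had 0 and 0 counts in CRISPRi neurons, against 0 and 5 counts in controls. The endothelial gene PECAM1 had 0 and 2 counts in CRISPRi neurons, against 0 and 0 counts in controls. The 6 endothelial markers summed to 1.32 and 1.71 CPM in CRISPRi neurons, against 2.12 and 1.47 CPM in controls, most of it CLDN5, which had 49 and 60 counts in CRISPRi neurons, against 2 and 52 counts in controls. CDH19, a cadherin of neural crest and Schwann cell precursors, had 0 and 2 counts in CRISPRi neurons, against 0 counts in both controls. SOX10, a transcription factor of the same lineage, had 0 counts in every library.

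Among atypical cadherins CDH13 was abundant and the rest were not. CDH13, T-cadherin, has no cytoplasmic tail and sits in the membrane by a lipid anchor. It was at 119 and 106 CPM in CRISPRi neurons, against 86.8 and 108 CPM in controls, and the groups overlapped. Its log2 fold change was 0.16 (SE 0.12, interval -0.14 to 0.45). CDH16 of kidney had 0 counts in every library, CDH17 of liver and intestine had 1 and 6 counts in CRISPRi neurons and 0 in both controls, and CDH26 had 0 and 1 counts in CRISPRi neurons and 0 in both controls.

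CDH23 and PCDH15 form the tip link that opens mechanotransduction channels in hair cells of the inner ear. CDH23 had 51 and 50 counts in CRISPRi neurons, against 3 and 67 counts in controls, or 1.14 and 1.203 CPM against 3.17 and 1.70 CPM. Both CRISPRi values were below both controls, and CDH23 had the smallest p of all members (edgeR adjusted p = 1.00), with a log2 fold change of -0.72 (SE 0.51, interval -1.98 to 0.53). The files do not say whether reads were counted by strand, and C10orf105 and VSIR overlap CDH23 on the other strand, so its counts are uncertain. PCDH15 was at 4.50 and 6.40 CPM in CRISPRi neurons, against 4.23 and 4.86 CPM in controls, and the groups overlapped.

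The delta-1 protocadherins PCDH1, PCDH7 and PCDH9, which carry a binding motif for protein phosphatase 1, summed to 283 and 283 CPM in CRISPRi neurons, against 251 and 285 CPM in controls. PCDH1 was at 145 and 148 CPM in CRISPRi neurons, against 112 and 147 CPM in controls. PCDH9 was at 118 and 116 CPM in CRISPRi neurons, against 108 and 118 CPM in controls, and the groups overlapped in both genes. PCDH7 was at 20.3 and 19.0 CPM in CRISPRi neurons, against 30.7 and 19.4 CPM in controls, where the high value rests on 29 counts. None of the 3 passed, with log2 fold changes of 0.13 for PCDH1, 0.04 for PCDH9 and -0.14 for PCDH7.

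All 5 delta-2 protocadherins were detected, and they summed to 269 and 272 CPM in CRISPRi neurons, against 244 and 276 CPM in controls. PCDH19, a gene on the X chromosome that is mutated in a childhood epilepsy, was at 75.0 and 71.8 CPM in CRISPRi neurons, against 62.4 and 73.0 CPM in controls. PCDH17, which acts at presynaptic sites of basal ganglia circuits in mice, was at 74.0 and 76.5 CPM in CRISPRi neurons, against 66.7 and 73.5 CPM in controls. Its CRISPRi values lay above both controls, and above control replicate 2 by less than the gap between the controls. The log2 fold change of PCDH17 was 0.08 (interval -0.13 to 0.29). PCDH8, an activity-regulated gene that draws N-cadherin from the surface in rat neurons, was at 66.5 and 72.9 CPM in CRISPRi neurons, against 78.3 and 73.3 CPM in controls. PCDH8 was below both controls in both CRISPRi libraries, with a log2 fold change of -0.09 (interval -0.31 to 0.14). PCDH10, a protocadherin of growing axons, was at 50.8 and 46.4 CPM in CRISPRi neurons, against 34.9 and 52.7 CPM in controls, and the groups overlapped. PCDH18 was far lower, with 127 and 181 counts in CRISPRi neurons, against 2 and 153 counts in controls.

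PCDH20 and PCDH12 belong to neither delta group. PCDH20 was at 25.3 and 26.0 CPM in CRISPRi neurons, against 15.9 and 24.9 CPM in controls. In GENCODE the protein-coding gene AL592490.1 overlaps PCDH20 on the same strand, so part of the PCDH20 counts may belong to it. PCDH12, described in endothelium and placenta, was at 16.5 and 18.1 CPM in CRISPRi neurons, against 10.6 and 16.8 CPM in controls. PCDH12 and PCDH1 lie on the same strand of chromosome 5, from 141943585 to 141969741 and from 141853111 to 141879246 on GRCh38. PCDH1 was 11.7 times PCDH12 in CPM per kb over the deep libraries. The protein-coding gene RNF14 overlaps PCDH12 on the other strand, and strand use in counting is not given, so the PCDH12 level is uncertain.

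**Figure D2:**
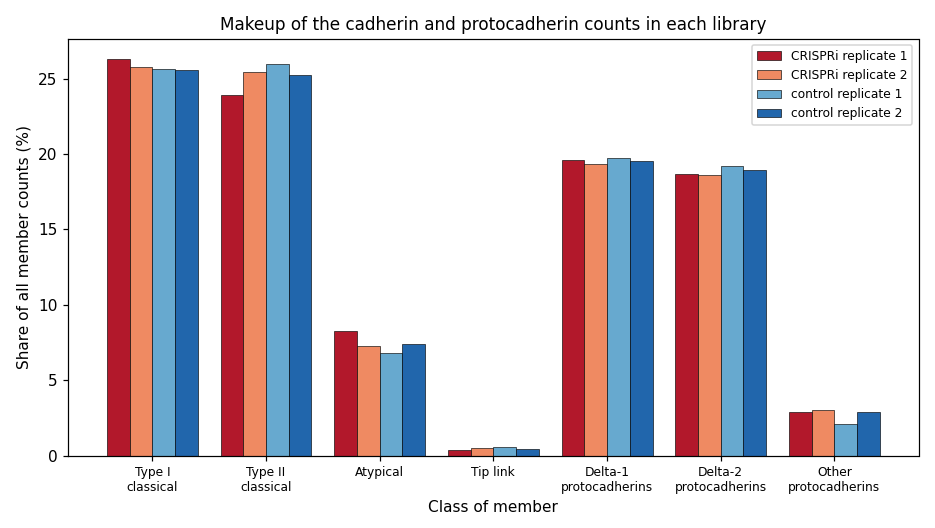
Share of all member counts (y axis, percent) taken by each class of member (x axis) in each library, CRISPRi libraries to the left of control libraries. Type I cadherins made up 25.6% to 26.3% and type II cadherins 23.9% to 26.0% in every library.

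The comparison of CRISPRi with control asks whether members differ in level when the element is targeted. No member passed the test. Among the 28 tested members edgeR called 0 higher and 0 lower, beside 0% of all tested genes called higher and 0.0255% called lower. DESeq2 also called 0 members, beside 0.00497% of its tested genes higher and 0.0596% lower, and limma-voom called 0 members, beside 0% higher and 0.0127% lower. In addition 0 members had an unadjusted p under 0.05 by any of the 3 tools. Over all genes 0.961% had an unadjusted p under 0.05 by edgeR. Exact permutation of 2 against 2 libraries was not used, its smallest two-sided p being 0.333.

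The intervals say how large a change remains possible. For 23 of the 28 tested members the 95% confidence interval lay within a 2-fold change in either direction, and for 13 within a 1.5-fold change. Over all tested genes these shares were 68.6% and 53.0%. The intervals take both controls together, and some bounded members went beyond them with 1 control left out. Without control replicate 2, the log2 fold changes of CDH4, CDH20 and CDH12 were 1.25, 1.61 and 1.13, beyond 2-fold. That of CDH6 was 0.64, beyond 1.5-fold. Without control replicate 1 the same genes stood at -0.0072, -0.21, -0.033 and 0.070. The members that the data bound within 1.5-fold were the abundant ones, among them CDH2, PCDH1, CDH22, CDH13, PCDH9, PCDH17, PCDH19 and PCDH8. The 5 members with wider intervals were PCDH18, PCDH15, CDH3, CDH9 and CDH23, all of them with means of at most 5.25 CPM in the deep libraries. In bulk RNA fewer cells of a type and less RNA per cell cannot be told apart.

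**Figure D3:**
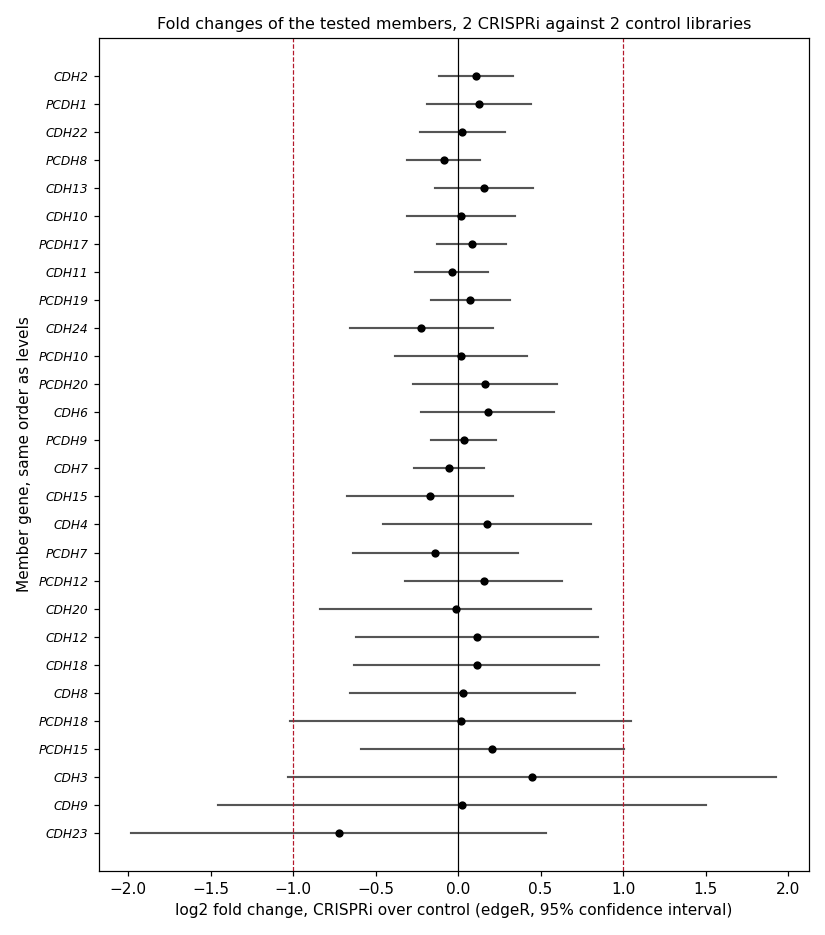
Log2 fold change of each tested member, CRISPRi over control, with its 95% confidence interval, and dashed lines at a 2-fold change in either direction. Every interval holds 0, and those of PCDH18, PCDH15, CDH3, CDH9 and CDH23 cross a dashed line.

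Fold changes were small and mixed. The median log2 fold change was 0.03 over the 28 members, beside 0.01 over all tested genes, and the median size regardless of sign was 0.11 over members and 0.10 over all tested genes. Positive values were found in 20 members and negative values in 8, beside 52.7% positive over all genes. CRISPRi values lay above both controls in 4 members (CDH2, PCDH17, PCDH20 and CDH3), beside 17.8% of all tested genes, and below both controls in 5 (PCDH8, CDH24, CDH7, CDH15 and CDH23), beside 16.5%.

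The deep libraries alone gave a closer view. Among the 23 members with a mean of at least 5 CPM there, the highest of the 3 libraries was at most 1.42 times the lowest, and in 20 of them it was under 1.2 times. The median size of the log2 ratio was 0.10 between CRISPRi replicates 1 and 2. It was 0.05 between CRISPRi replicate 1 and control replicate 2 and 0.05 between CRISPRi replicate 2 and control replicate 2. By these medians the CRISPRi libraries differed no more from this 1 control library than from each other. Over the 11286 genes at that level the same 3 medians were 0.06, 0.06 and 0.06.

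Control replicate 1 stood apart for the members. It held the lowest CPM of the 4 libraries in 20 of the 28 tested members and the highest in 6, beside 50.2% and 39.5% of all tested genes. Exact Poisson 95% intervals on its counts, which cover counting error only, lay below the mean of the deep libraries in 7 members and above it in 2. The 7 were CDH2, PCDH1, CDH13, PCDH10, CDH6, CDH4 and CDH20, and the 2 were CDH24 and PCDH7. As shares of the tested members these were 25% and 7.14%, beside 7.49% and 11.8% of all tested genes. CDH4 was at 9.52 CPM in control replicate 1 (interval 4.35 to 18.1), where the deep libraries averaged 22.2 CPM.

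Without control replicate 1 the members stayed uncalled, and 11 of 28 had positive log2 fold changes, with a median of -0.016 (all tested genes -0.00017). Over all genes 0.437% were then called higher and 0.222% lower. Without control replicate 2, which leaves control replicate 1 alone in its group, 2 members were called, PCDH1 (log2 fold change 0.41, edgeR adjusted p = 0.0311) and CDH4 (1.25, edgeR adjusted p = 0.0350). Over all genes 3.61% were then called higher and 4.97% lower, with a median log2 fold change of 0.10. The median over the members was 0.40, which counts CDH3 and CDH9 at fitted values although both are at 0 in control replicate 1, and 0.31 with these 2 set against 3 counts. Without control replicate 1 the same genes stood at -0.0027 for PCDH1 and -0.0072 for CDH4.

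**Figure D4:**
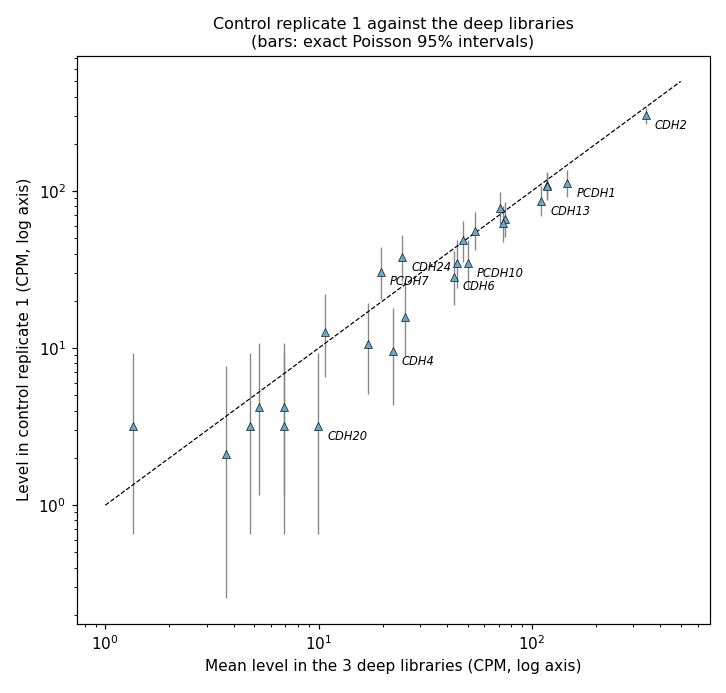
Level of each tested member with a count in control replicate 1 (y axis, CPM, log scale) against its mean in the deep libraries (x axis, CPM, log scale), with exact Poisson 95% intervals and a dashed line of equality. Named genes have intervals that leave out the deep mean, and 7 of these 9 lie below the line.

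Genes that work with cadherins were read from 4 lists. Of 15 genes of the catenin and junction plaque list, 15 were tested and 0 were called, with a median log2 fold change of -0.0015 beside 0.01 over all tested genes. CTNNB1, which encodes beta-catenin, was at 598 and 599 CPM in CRISPRi neurons, against 621 and 581 CPM in controls. AFDN, the junction protein afadin, was at 267 and 265 CPM in CRISPRi neurons, against 222 and 276 CPM in controls. PTPRF, a receptor phosphatase that binds catenins, was at 252 and 263 CPM in CRISPRi neurons, against 274 and 265 CPM in controls. VCL, vinculin, and LIMA1, an actin-binding protein, had the smallest p of the list, with log2 fold changes of -0.15 and -0.27 (adjusted p = 1.00 by edgeR for both). The alpha-catenins CTNNA1 and CTNNA2 were both abundant, whereas CTNNA3 had 60 and 46 counts in CRISPRi neurons, against 0 and 44 counts in controls. Without control replicate 2, AFDN stood at 0.29 and LIMA1 at -0.74, while without control replicate 1 they stood at -0.05 and -0.09.

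The WAVE complex, which delta-2 protocadherins recruit, had 9 of 11 genes tested and 0 called, with a median of 0.03. CYFIP2 was at 393 and 375 CPM in CRISPRi neurons, against 346 and 390 CPM in controls. NCKAP1 was at 258 and 256 CPM in CRISPRi neurons, against 236 and 255 CPM in controls, and ABI2 at 233 and 228 CPM against 226 and 224 CPM. BRK1 and WASF2, with the smallest p of the list, had log2 fold changes of 0.10 and -0.13. The blood cell forms were absent or nearly so, with ABI3 at 0 counts in every library and NCKAP1L at 0 and 4 counts in CRISPRi neurons and 0 and 1 counts in controls.

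In the list of cadherin processing genes 16 of 16 were tested and 0 called, with a median of -0.03. ADAM10, the metalloprotease that sheds the N-cadherin ectodomain, was at 71.8 and 73.0 CPM in CRISPRi neurons, against 87.8 and 94.4 CPM in controls, and the groups did not overlap. Its log2 fold change was -0.34 (SE 0.08, interval -0.54 to -0.15), with an unadjusted p of 0.00550 and an adjusted p of 1.00 by edgeR. ADAM10 did not pass with all 4 libraries. It was called lower without control replicate 1, at a log2 fold change of -0.38, in a fit that leaves 1 control library. Without control replicate 2 its log2 fold change was -0.25 and it was not called. ADAM10 was the only gene of the 4 lists with an unadjusted p under 0.05 by edgeR, beside 0.961% of all tested genes. CRISPRi values below both controls, as for ADAM10, were found in 16.5% of all tested genes. APH1A, a gamma-secretase subunit, was at 28.1 and 27.1 CPM in CRISPRi neurons, against 99.5 and 29.5 CPM in controls, so its log2 fold change of -0.77 rests on control replicate 1, and it was -0.09 without that library. Without control replicate 2 the log2 fold change of APH1A was -1.82. TMTC4, which adds mannose to cadherins, and NCSTN were among the most abundant of the list and had log2 fold changes of 0.02 and -0.04.

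Of 7 transcription factors known to act on cadherin genes 6 were tested and 0 called, with a median of -0.04. ZEB1 and ZEB2, repressors of CDH1 in epithelial cells, were at 170 and 173 CPM and at 116 and 123 CPM in CRISPRi neurons, against 164 and 175 CPM and 109 and 117 CPM in controls. TCF3 was at 76.0 and 76.2 CPM in CRISPRi neurons, against 95.2 and 78.0 CPM in controls. SNAI2 was at 10.8 and 11.3 CPM in CRISPRi neurons, against 16.9 and 12.0 CPM in controls. GRHL2, an activator of CDH1 in epithelia, had 0 and 1 counts in CRISPRi neurons and 0 in both controls.

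Members lay on several chromosomes and differed widely in genomic length. Chromosome 16 held 8 of the 34, chromosome 5 held 7, and chromosomes 13 and 18 held 4 each. Genomic spans ran from 5.75 kb for PCDH8 to 1825 kb for PCDH15, and 6 members spanned over 500 kb (CDH4, CDH12, CDH13, CDH18, PCDH9 and PCDH15). All 6 of these were tested, with log2 fold changes from 0.04 to 0.21, and none passed. Without control replicate 1 their log2 fold changes ran from -0.033 (CDH12) to 0.17 (PCDH15), on both sides of 0. Over the 28 tested members Spearman's rho between span and level per kilobase was -0.32, a description over points that share the same 3 libraries. In GENCODE, 18 members overlap a gene on the opposite strand and 18 a gene on their own strand, so part of their counts may belong to those genes.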

How the data were processed

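The 4 libraries are bulk polyA RNA sequencing. Each deposited file holds the authors' raw count and an FPKM per gene. The submitters' processing notes name hg38, edgeR and limma, without roles; aligner, counter and strand use are not given in the sources used here. Summing was done per symbol over all rows, and 5.08% to 5.15% of counts lie on alternate contigs. FPKM, whose unit was inferred from the values, served only as another measure of level.

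CRISPRi was compared with control on all genes with edgeR 4.0.16 (R 4.3.3), using TMM, the filterByExpr filter and a robust quasi-likelihood fit with group alone, at a Benjamini-Hochberg threshold of 0.05, tested on simulated data. Fold changes did not simply weight libraries by depth. That of CDH2 was 0.11, against 0.03 without control replicate 1 and 0.21 without control replicate 2. That of CDH4, with fewer counts, was 0.17, against -0.0072 and 1.25. Control replicate 1 thus moved the values of abundant members despite its low depth. Standard errors come from the F statistic, and are never below counting error. edgeR raised p to a Poisson bound for 4 members (PCDH19, PCDH9, CDH12 and CDH18). Alternatives were DESeq2 1.42.0, limma-voom (limma 3.58.1), scaling by median of ratios or by totals, leaving the filter out or setting it at 1 CPM in 2 libraries, a replicate block, each library left out, primary chromosomes only, and thinning to 944993 counts. Transcript lengths come from GENCODE release 29.

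Members and lists were chosen with earlier results of these data known. Full values are given for 24 members, the 23 with a mean of at least 5 CPM over the deep libraries and the 5 with the smallest p, which overlap. From each list the 3 most abundant genes and the 2 with the smallest p are named; other genes were named after their values were seen. Marker lists are given as sums with their 2 highest genes, partly in the closing section. A few genes that these rules name, and the sum of 1 marker list, are not reported here.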

Additional observations from a re-analysis of the deposited data

How the results depend on the processing

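Of 307 values of the 24 fully described members in the other settings, 279 held their sign and test outcome, 2 gained a call and 26 turned sign; the cause was not tested. Leaving out single libraries gave 0 to 2 members called higher, and members called lower stayed at 0 in every setting. The median, 0.03, became 0.15 with the replicate block, and its range without single libraries was -0.016 to 0.40. Calls in the catenin and processing lists appeared only with a control library left out, where the shares called over all genes rose too. Signs turned with limma-voom for CDH22 (-0.013), CDH10 (-0.054), PCDH10 (-0.083), PCDH9 (-0.0030) and CDH8 (-0.010), and after thinning for CDH13 (-0.012), PCDH10 (-0.11), PCDH9 (-0.050) and CDH7 (0.084). CDH20, at -0.01, became 0.22 with DESeq2 and 0.26 with the replicate block. With a library left out the ranges that cross 0 were -0.073 to 0.14 for CDH22, -0.071 to 0.35 for CDH10, -0.094 to 0.016 for CDH11, -0.11 to 0.51 for PCDH10, -0.014 to 0.14 for PCDH9, -0.0072 to 1.25 for CDH4, -0.61 to 0.025 for PCDH7, -0.21 to 1.61 for CDH20, -0.033 to 1.13 for CDH12, -0.086 to 0.70 for CDH8, -0.032 to 0.48 for PCDH15 and -0.0027 to 0.41 for PCDH1. A lone library is then assumed to vary like the other group. CDH4 has no row on a primary chromosome and no value there. The replicate numbers are not stated to mark shared cultures, and the correlation of same-numbered deviations over genes was -0.03; the block called 0 members. Of the 10 highest members per kilobase, 8 are also among the highest 10 per coding kilobase and 9 by FPKM. Low members are limited by control replicate 1, where 3 counts equal 3.17 CPM.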

Other observations

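Markers of other cell types were low beside the neuronal sum and are given for comparison with the low cadherins. Mesenchymal genes, led by COL1A1 and COL3A1, summed to 68.6 and 80.8 CPM in CRISPRi neurons, against 48.7 and 71.6 CPM in controls. Pluripotent genes summed to 20.5 and 20.1 CPM in CRISPRi neurons, against 13.8 and 21.3 CPM in controls, nearly all of it LIN28A, while POU5F1 had 9 and 12 counts in CRISPRi neurons and 0 and 12 counts in controls. Epithelial genes, led by KRT8 and KRT18, summed to 3.21 and 3.37 CPM in CRISPRi neurons, against 15.9 and 2.47 CPM in controls. TIE1, the second highest endothelial marker, had 5 and 6 counts in CRISPRi neurons, against 0 and 3 counts in controls. The excitatory genes SLC17A6, SLC17A7 and NEUROG2 summed to 582 and 597 CPM in CRISPRi neurons, against 544 and 601 CPM in controls.

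The deposited FPKM and the counts went apart for PCDH9 in control replicate 1. Its FPKM was 13.6 and 13.5 in CRISPRi neurons, against 5.18 and 14.3 in control replicates 1 and 2, whereas its CPM was 118 and 116 in CRISPRi neurons, against 108 and 118 in controls. The files list 5 and 5 RefSeq transcripts beside PCDH9 in CRISPRi neurons, against 2 and 5 in controls.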
